A study of Mus musculus with 11 samples.

Results

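The 10 genes described here are markers used to sort haematopoietic stem cells and genes of adhesion and homing to the bone marrow niche: Procr, Ly6a, Slamf1, Cd48, Cd34, Fgd5, Esam, Cxcr4, Robo4 and Cd9. They were chosen by symbol from a table of 49585 genes, and each of the 10 was among the 13448 genes that passed a filter on low counts and were tested. The cells were lineage-negative, c-Kit+ Sca-1+ stem cells of C57BL/6 mice that lacked CD48 and carried CD150, and they were divided by surface CD41, an integrin chain of megakaryocytes and platelets. Mice had received control rabbit serum or were studied 24 h after depletion of their platelets. The 11 libraries formed 4 groups: control CD41- (n = 3), control CD41+ (n = 2), depleted CD41- (n = 3) and depleted CD41+ (n = 3). Each library held RNA of 1000 cells pooled from 3 mice, so differences between single mice were not visible.

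Stem cells make up a very small share of the marrow and are recognised by combinations of surface proteins. Sca-1 (gene Ly6a) and CD150 (Slamf1) are present on them, whereas CD48 (Cd48) appears on more mature progenitors, and the endothelial protein C receptor EPCR (Procr), CD34, ESAM and CD9 are used to refine the sort. The chemokine receptor CXCR4 and the guidance receptor ROBO4 take part in holding stem cells in their niche. The transcripts were therefore read against a gate that had been set on proteins: CD48-, CD150+ and Sca-1+ in all 4 groups.

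Gene counts per library added up to between 0.974 M and 9.95 M, with a median of 3.88 M. Levels are given as CPM, which sets the counts of a gene against the TMM-scaled total of its library. A value resting on 3 counts, taken as the floor, was worth 0.306 CPM in the deepest and 3.34 CPM in the shallowest library. Depleted CD41+ replicate 1 was the shallowest library, and in it Procr rested on 14 counts, Cxcr4 on 10 and Fgd5 on 8. Without this library 4 of the 10 genes, rather than 6, were called in the CD41 average. Counting error alone is covered by such floors, since amplified reads without molecular identifiers are not independent molecules. Changes are log2 fold changes ± SE from the quasi-likelihood test of edgeR, and a gene is called when its Benjamini-Hochberg adjusted p over all 13448 genes lies under 0.05. In RNA of pooled cells, fewer cells of a type and less RNA per cell cannot be told apart. Itga2b, the gene of CD41, served as a check of the labels. It stood between 169.8 and 425 CPM in the 5 CD41+ libraries and between 37.5 and 98.5 CPM in the 6 CD41- libraries, with no overlap (log2 2.41 ± 0.18, adjusted p = 2.01e-05).

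How CD41+ stem cells differ from CD41- stem cells was addressed first, as the difference averaged over control and depleted mice. Of the 10 genes, 6 were called, 4 lower and 2 higher in CD41+ cells, whereas 5.38% of all tested genes were called (2.65% lower and 2.73% higher). Procr, Ly6a, Cd34 and Fgd5 were less abundant in CD41+ cells, and Slamf1 and Cd9 were more abundant. Cd48, Esam, Cxcr4 and Robo4 were not called. Over all tested genes 367 were higher and 357 lower, and with scaling by library size alone 250 were higher and 445 lower. The median log2 fold change of the 10 genes was -0.38, against -0.03 over all tested genes. The 5 CD41+ libraries did not overlap with the 6 CD41- libraries for Procr, Ly6a, Cd34 and Cd9, and the same lack of overlap was found for 3.29% of tested genes.

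**Figure D1:**
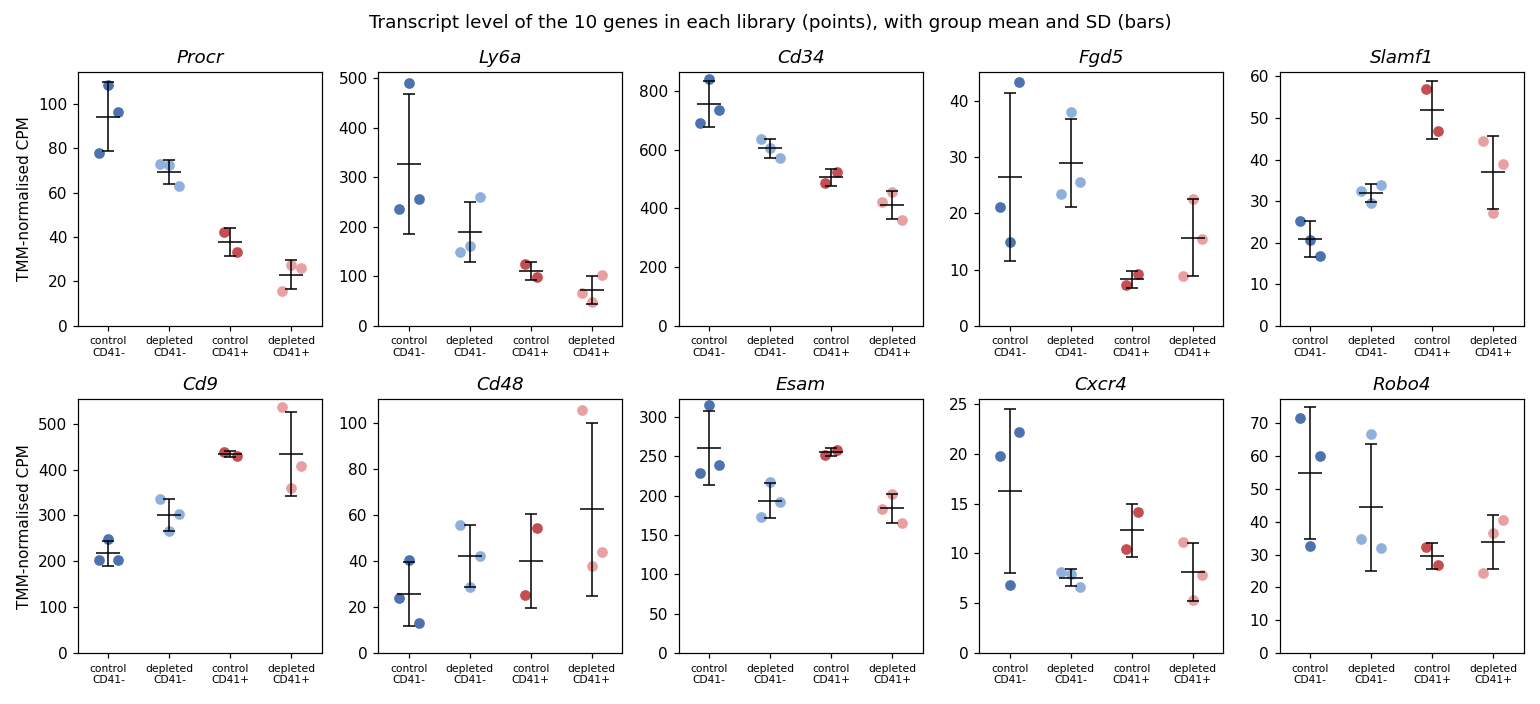
TMM-normalised CPM of the 10 genes (vertical axes, each gene on its own scale from 0) in the 4 groups (horizontal axes). Points are libraries, horizontal bars are group means and whiskers are SD (n = 3, 3, 2 and 3 from left to right). For Procr and Cd34 the libraries of any group lie apart from those of every other group, and for Cd9 and Slamf1 the control CD41- libraries are the lowest.

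Procr (ENSMUSG00000027611, GRCm38 chromosome 2, 155751117 to 155755471, plus strand) encodes EPCR, which binds protein C and marks stem cells that repopulate the marrow over the long term. Its level was 77.8, 109 and 96.6 CPM in control CD41- libraries and 72.8, 72.5 and 63.1 CPM in depleted CD41- libraries. The CD41+ libraries held 42.2 and 33.3 CPM in control mice and 15.6, 27.4 and 26.2 CPM in depleted mice. The groups thus stood in the order control CD41-, depleted CD41-, control CD41+, depleted CD41+, with no library of any group inside the range of another. The CD41 difference was -1.42 ± 0.17 (adjusted p = 0.000928), a level 2.68-fold lower in CD41+ cells. Within control mice it was -1.32 ± 0.26 (adjusted p = 0.0164). Within depleted mice it was -1.53 ± 0.23 (adjusted p = 0.0166).

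Cd34 (ENSMUSG00000016494, chromosome 1, 194938819 to 194961279, plus strand) encodes a sialomucin of progenitors and endothelium that is low on the most primitive mouse stem cells. Control CD41- libraries held 690, 841 and 734 CPM, and depleted CD41- libraries 636, 607 and 572 CPM. Control CD41+ libraries held 486 and 525 CPM, and depleted CD41+ libraries 420.4, 456 and 360.4 CPM. These are the same steps from group to group as for Procr, again without overlap between any pair of groups, but over a smaller range. The CD41 difference was -0.57 ± 0.11 (adjusted p = 0.0096), or 1.48-fold lower. Among all tested genes, 0.654% showed no overlap between any pair of the 4 groups, and 0.0967% did so in the order seen for Procr and Cd34. The gene Itga2b was also separated in this way, in another order.

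Ly6a (ENSMUSG00000075602, chromosome 15, 74994877 to 74998031, minus strand) encodes Sca-1, a GPI-anchored protein and part of the gate in all groups. Its level was 236, 490.3 and 256 CPM in control CD41- libraries and 149, 161 and 259 CPM in depleted CD41- libraries. In CD41+ cells it was 124 and 97.8 CPM (control) and 65.6, 48.0 and 103 CPM (depleted). All CD41+ libraries lay below all CD41- libraries, although both fractions had been sorted as Sca-1+, and control CD41- replicate 2 stood far above the rest of its group. The difference was -1.47 ± 0.26 (adjusted p = 0.00794), and the adjusted p was 0.0519 when control CD41+ replicate 2 was left out. Reads shared with close relatives on the same chromosome, such as Ly6c1 and Ly6c2, could be split in counting, which was not tested.

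Fgd5 (ENSMUSG00000034037, chromosome 6, 91978878 to 92076004, plus strand) encodes an exchange factor for the small GTPase CDC42, and its locus has served to label stem cells with reporters. Levels were 21.2, 14.9 and 43.3 CPM in control CD41- libraries and 23.4, 37.9 and 25.5 CPM in depleted CD41- libraries. They were 7.21 and 9.29 CPM in control CD41+ libraries and 8.90, 22.5 and 15.4 CPM in depleted CD41+ libraries. Within each treatment the CD41+ libraries lay below the CD41- libraries, but across treatments the fractions overlapped. The difference was -1.25 ± 0.32 (adjusted p = 0.0385, and 0.0828 by limma voom). The call was kept when control CD41- replicate 1 or 2 or depleted CD41+ replicate 2 was left out. It was lost when any of the other 8 libraries was left out, with an adjusted p between 0.0556 and 0.132 and log2 fold changes between -1.34 and -0.97.

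Slamf1 (ENSMUSG00000015316, chromosome 1, 171767127 to 171801184, plus strand) encodes CD150, the founding SLAM receptor and another part of the gate. The control CD41- libraries had 25.3, 20.7 and 16.8 CPM, and the control CD41+ libraries 56.9 and 47.0 CPM. In depleted mice the values were 32.4, 29.5 and 33.8 CPM in CD41- cells and 44.5, 27.2 and 39.0 CPM in CD41+ cells. The fractions stood apart in control mice and overlapped in depleted mice. Averaged over treatments Slamf1 was higher in CD41+ cells by 0.75 ± 0.19 (adjusted p = 0.0362, and 0.0615 with scaling by library size alone). The call was kept when control CD41- replicate 1 or depleted CD41+ replicate 2 was left out. It was lost when any of the other 9 libraries was left out, with an adjusted p between 0.0524 and 0.112 and log2 fold changes between 0.68 and 0.81.

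Cd9 (ENSMUSG00000030342, chromosome 6, 125460266 to 125494791, minus strand) encodes a tetraspanin that organises adhesion complexes and is abundant on megakaryocytes and platelets. It stood at 202.4, 249.5 and 202.1 CPM in control CD41- libraries and at 335, 266 and 302.5 CPM in depleted CD41- libraries. The control CD41+ libraries held 438 and 429 CPM and the depleted CD41+ libraries 536, 359.6 and 408 CPM. Every CD41+ library was above every CD41- library, and the control CD41- libraries were the lowest. The difference was 0.76 ± 0.13 (adjusted p = 0.00521), or 1.69-fold higher. Of 12 tested megakaryocyte genes other than Itga2b, the gene of the sorted protein, 8 were higher in CD41+ cells and 0 lower, among them Gp5 at 2.35 (adjusted p = 0.000193). The summed level of the list without Itga2b overlapped between the fractions, with 1134 to 1672 CPM in CD41+ and 956 to 1460.5 CPM in CD41- libraries of control mice, and 697 to 1017 CPM and 573 to 876 CPM in depleted mice. Gp6 was at 0 in all 11 libraries, and the part of these transcripts in the Cd9 difference was not tested.

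For 4 of the called genes, the bases ahead of the annotated start are printed because Procr and Cd34 were lower and Slamf1 and Cd9 higher in the same CD41+ libraries. The windows come from RefSeq (GRCm38.p6), with 8 of the 10 genes found, all but Ly6a and Esam. They end at the base before the gene and are written 5′ to 3′ on the strand of the gene, with capitals marking matches to motifs of blood transcription factors. Both strands were searched for the letters GATAA of GATA factors, for AGGAAG of ETS factors, for TGTGGT of RUNX factors and for CANNTG, the E-box. Positions are chr2:155750967-155751116 (plus strand) for Procr, chr1:194938571-194938818 (plus) for Cd34, chr1:171766882-171767126 (plus) for Slamf1 and chr6:125494792-125495010 (minus) for Cd9.
Procr: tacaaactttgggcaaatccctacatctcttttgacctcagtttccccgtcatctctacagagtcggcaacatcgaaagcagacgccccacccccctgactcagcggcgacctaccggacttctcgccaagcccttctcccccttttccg
Cd34: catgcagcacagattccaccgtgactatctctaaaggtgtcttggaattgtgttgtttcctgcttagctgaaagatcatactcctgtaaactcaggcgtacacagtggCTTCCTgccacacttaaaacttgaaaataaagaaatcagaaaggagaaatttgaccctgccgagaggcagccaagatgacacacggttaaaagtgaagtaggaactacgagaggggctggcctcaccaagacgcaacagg
Slamf1: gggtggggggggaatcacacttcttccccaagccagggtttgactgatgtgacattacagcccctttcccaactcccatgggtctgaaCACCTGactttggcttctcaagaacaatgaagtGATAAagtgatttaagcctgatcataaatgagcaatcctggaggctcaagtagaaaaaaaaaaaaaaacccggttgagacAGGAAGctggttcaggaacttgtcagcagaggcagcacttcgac
Cd9: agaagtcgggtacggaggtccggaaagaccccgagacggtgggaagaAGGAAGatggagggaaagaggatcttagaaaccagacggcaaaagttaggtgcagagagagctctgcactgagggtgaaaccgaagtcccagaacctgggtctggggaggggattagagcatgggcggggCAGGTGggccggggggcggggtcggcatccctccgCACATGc
The Procr window of 150 bases held no match, and the Cd34 window of 248 bases held 1 AGGAAG, on the reverse strand, as CTTCCT. The Slamf1 window of 245 bases held 1 GATAA, 1 AGGAAG and 1 E-box, and the Cd9 window of 219 bases held 1 AGGAAG and 2 E-boxes. Of 32851 promoters cut to the same length as that of Slamf1, 22.3% held GATAA, 29% AGGAAG and 65.7% an E-box. For the length of the Cd9 window, 26% held AGGAAG and 62% an E-box, and for the length of Cd34 29.3% held AGGAAG. At the length of the Procr window, 15.6% held GATAA, 18.1% AGGAAG, 8.77% TGTGGT and 49.3% an E-box. Of the windows not printed, Fgd5 held 1 AGGAAG, Cxcr4 1 GATAA, Robo4 2 E-boxes, and Cd48 1 TGTGGT and 1 E-box. A match describes these letters only and is not a bound site.

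Among the genes that were not called, Cd48 (ENSMUSG00000015355, chromosome 1, 171682009 to 171705258, plus strand) is the marker that the gate excluded. It encodes a GPI-anchored SLAM protein that binds CD244, and its gene lies 61.9 kb from Slamf1 with 0 coding genes between them. Cd48 transcripts were counted in all 11 libraries, with between 53 and 548 counts. The control libraries had 23.9, 40.3 and 12.9 CPM in CD41- cells and 25.4 and 54.4 CPM in CD41+ cells. The depleted libraries had 55.8, 28.7 and 42.1 CPM in CD41- cells and 105.7, 37.8 and 44.0 CPM in CD41+ cells. Each group overlapped with every other group, and the highest value came from the shallowest library. The CD41 difference was 0.57 ± 0.35 (95% interval -0.19 to 1.32, adjusted p = 0.352).

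Transcripts of genes listed as markers of other blood cells were counted beside it. All 13 neutrophil genes of a list were counted in every library, and 12 of the 13 were positive in the CD41 comparison with 0 called. In control mice their summed level was 8717 to 15148 CPM in the CD41- and 24242 to 84506 CPM in the CD41+ libraries. In depleted mice it was 4430 to 37080 CPM and 15176 to 52639 CPM. Of 10 macrophage genes 1 was higher in CD41+ cells (Mrc1), of 12 erythroid genes 1 (Epor) and of 3 tested T and NK cell genes 1 (Nkg7). The share of all tested genes called higher was 2.73%. Cd3e, Cd3d, Cd3g, Cd8a, Cd8b1, Trac and Ncr1 of the T and NK cell list did not pass the filter on low counts. The 8 B cell genes and the 6 mast cell and basophil genes were not called. The cells that these transcripts came from, and their part in the Cd48 level, were not tested. Kit (chromosome 5, 75574916 to 75656722, plus strand), the receptor of stem cell factor and another gate gene, ran between 83.4 CPM in depleted CD41+ replicate 1, which had the highest Cd48 level, and 867 CPM in control CD41- replicate 3. Its CD41 difference was -0.53 ± 0.42 (adjusted p = 0.487).

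Esam (ENSMUSG00000001946, chromosome 9, 37528078 to 37538319, plus strand) encodes an adhesion molecule of endothelial junctions, platelets and stem cells. Its CD41 difference of -0.05 ± 0.12 had a 95% interval from -0.32 to 0.21 (adjusted p = 0.840). Robo4 (ENSMUSG00000032125, chromosome 9, 37401897 to 37415115, plus strand), a guidance receptor of endothelium and stem cells, lies 113 kb from Esam. It ranged from 24.5 CPM in a depleted CD41+ library to 71.8 CPM in a control CD41- library, with overlap between the fractions, and its difference was -0.62 ± 0.26 (adjusted p = 0.170). Cxcr4 (ENSMUSG00000045382, chromosome 1, 128588199 to 128592293, minus strand), the receptor of CXCL12, was low, with between 5.29 and 22.1 CPM. Its difference was -0.20 ± 0.34 with a 95% interval from -0.92 to 0.53 (adjusted p = 0.779), the widest on the log2 scale among these 3 genes.

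**Figure D2:**
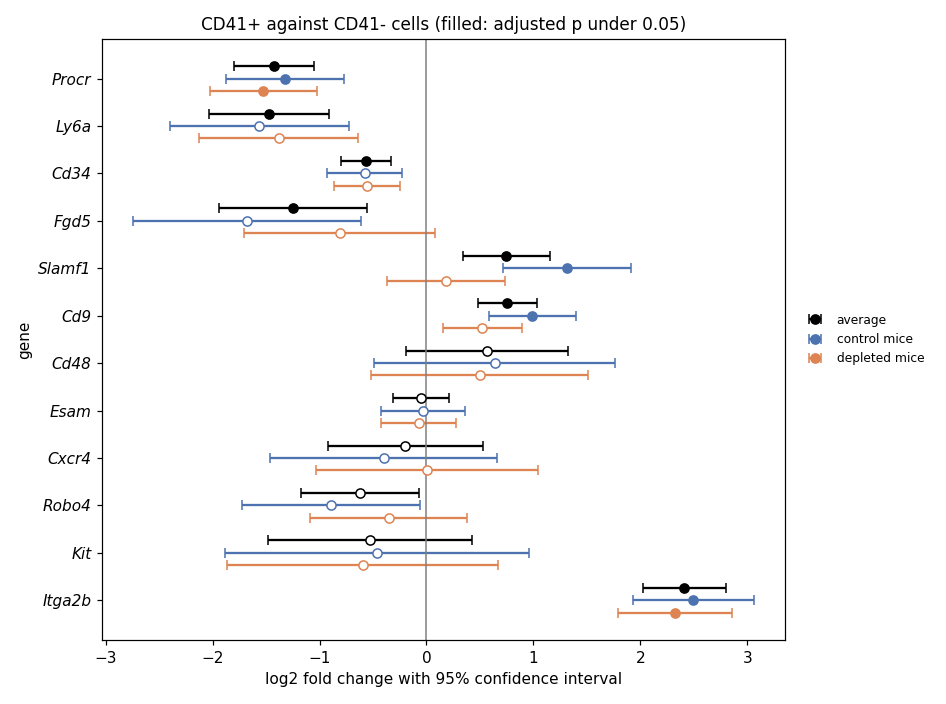
Log2 fold change of CD41+ against CD41- cells (horizontal axis) for the 10 genes, Kit and Itga2b (vertical axis), as an average and within control and depleted mice. Bars are 95% confidence intervals and filled points have an adjusted p under 0.05. Procr, Ly6a, Cd34 and Fgd5 lie left of 0 in all 3 comparisons, and Slamf1 lies at 1.31 in control and 0.18 in depleted mice.

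Within control mice alone 3 of the 10 genes were called, 2 higher and 1 lower, against 2.62% of tested genes (1.58% higher and 1.04% lower, or 212 and 140 genes, which became 129 and 157 with scaling by library size alone). These were Procr, Slamf1 at 1.31 ± 0.28 (adjusted p = 0.0250) and Cd9 at 0.99 ± 0.19 (adjusted p = 0.0147). With 2 CD41+ libraries in this group, each of the calls depended on single libraries. Procr had an adjusted p of 0.0614 without control CD41+ replicate 1 and 0.178 without its replicate 2. For Slamf1 it was 0.124 and 0.0983 without these libraries and 0.0869 without control CD41- replicate 3. It was 0.0816 in a fit of only the groups compared. For Cd9 the adjusted p was 0.0643 and 0.0882 without the control CD41+ libraries, and 0.0551 and 0.0587 without control CD41- replicates 1 and 3. The libraries of the fractions did not overlap for 7 of the 10 genes, Robo4 among them, but 34.9% of tested genes had no overlap with 3 libraries against 2.

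In depleted mice alone Procr was the 1 gene called, against 0.193% of tested genes (0.126% lower). Its adjusted p was 0.108 when depleted CD41- replicate 1 was left out, 0.117 when replicate 2 of that group was left out, and 0.0742 when depleted CD41+ replicate 3 was left out. Ly6a at -1.38 ± 0.34 (adjusted p = 0.153) and Cd34 at -0.55 ± 0.14 (adjusted p = 0.167) were not called by edgeR, and their fold changes in control mice were -1.56 and -0.58. DESeq2 called Ly6a (adjusted p = 0.0116) and Cd34 (adjusted p = 0.0300) in depleted mice, and limma voom called Cd34 (adjusted p = 0.0483). With libraries of consecutive title numbers paired as a block, edgeR also called Ly6a there (-1.43, adjusted p = 0.0172). Slamf1 stood at 0.18 ± 0.26 (adjusted p = 0.898) and Cd9 at 0.52 ± 0.17 (adjusted p = 0.307). Of the 10 genes, 5 had no overlap between the fractions, against 17.7% of tested genes.

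What 24 h without platelets does to the same genes was addressed by depleted against control mice. Averaged over the CD41 fractions, Esam was the 1 gene of the 10 called, and it was lower, whereas 6.33% of tested genes were called (2.73% lower). In CD41- cells Esam stood at 229, 315 and 239 CPM in control libraries and at 172.5, 217 and 192 CPM in depleted libraries. In CD41+ cells it stood at 252 and 259 CPM in control libraries and at 183.5, 203 and 166 CPM in depleted libraries. All 6 depleted libraries lay below all 5 control libraries, which 3.95% of tested genes showed. The difference was -0.45 ± 0.12 (adjusted p = 0.0425), or 1.37-fold lower. This call is close to the threshold: without control CD41+ replicate 1 or 2, control CD41- replicate 2 or 3, depleted CD41- replicate 1 or 3 or depleted CD41+ replicate 3 its adjusted p lay between 0.0514 and 0.130. It also missed with library size alone (0.0526), without robust estimation (0.0528) and without the filter on low counts (0.0642). Megakaryocyte transcripts moved as well, with 5 of 12 tested genes other than Itga2b lower after depletion and 1 higher, and Gp5 had the smallest p (-1.81, adjusted p = 0.000887). Their part in the Esam difference was not tested.

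The other stem cell markers and the chemokine receptor were not called after depletion, with intervals that in part lay on one side of 0. Procr had -0.54 ± 0.17 (adjusted p = 0.0724), Ly6a -0.70 ± 0.25 (adjusted p = 0.119) and Cd34 -0.31 ± 0.11 (adjusted p = 0.107). DESeq2 called these 3 (adjusted p = 0.0289, 0.0498 and 0.0422) beside Esam. Cxcr4 stood at 19.8, 6.81 and 22.1 CPM in control CD41- libraries and at 10.4 and 14.2 CPM in control CD41+ libraries. After depletion it stood at 8.15, 7.96 and 6.62 CPM in CD41- cells and at 11.1, 5.29 and 7.87 CPM in CD41+ cells. Control CD41- replicate 2 was as low as the depleted libraries, and without it the Cxcr4 difference of -0.89 ± 0.34 (adjusted p = 0.142) became -1.08 (adjusted p = 0.0450). Slamf1 (0.05), Cd48 (0.65), Fgd5 (0.56), Cd9 (0.23) and Robo4 (-0.04) had adjusted p values between 0.316 and 0.957. Itga2b fell by 0.79 on the log2 scale (adjusted p = 0.0187), and this call missed when control CD41+ replicate 1 (0.0910) or depleted CD41+ replicate 3 (0.0529) was left out.

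**Figure D3:**
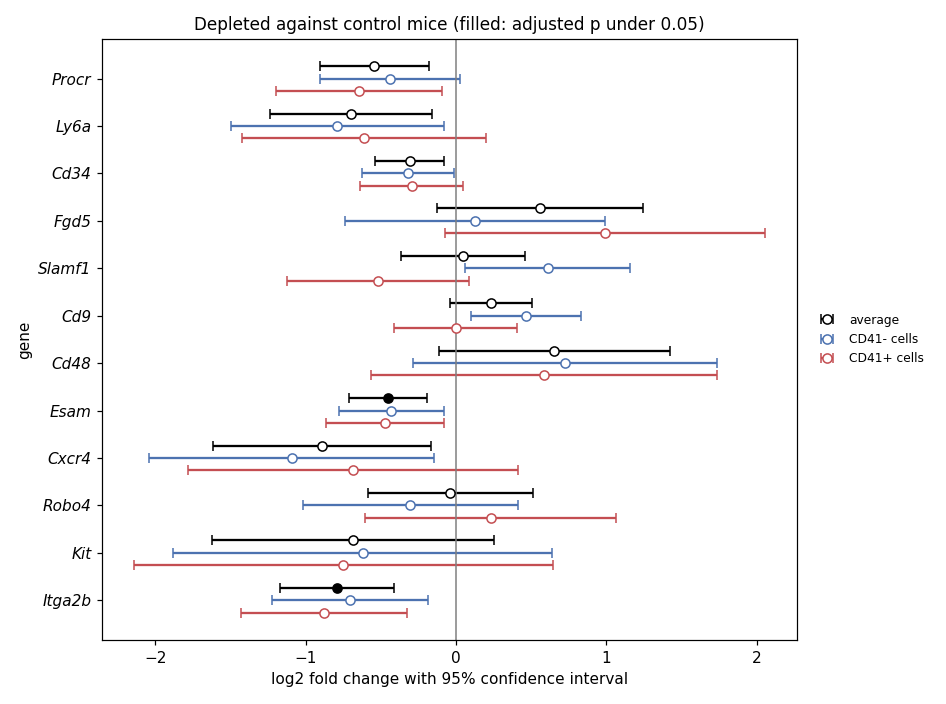
Log2 fold change of depleted against control mice (horizontal axis) for the 10 genes, Kit and Itga2b (vertical axis), averaged over fractions and within CD41- and CD41+ cells. Bars are 95% confidence intervals and filled points have an adjusted p under 0.05. Of the 10 genes, Esam is filled in the average (-0.45), and Slamf1 lies at 0.61 in CD41- and at -0.52 in CD41+ cells.

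Within CD41- cells edgeR called 0 of the 10 genes after depletion, against 3.19% of tested genes. At an unadjusted p under 0.05 there were 6 (Ly6a, Slamf1, Cd34, Esam, Cxcr4 and Cd9), and DESeq2 and limma voom also called 0. Cd9 stood at 0.47 ± 0.17 (adjusted p = 0.176) and Slamf1 at 0.61 ± 0.26 (adjusted p = 0.240). Depleted and control libraries did not overlap for 5 of the 10 genes, against 25% of tested genes. In CD41+ cells edgeR, DESeq2 and limma voom called 0 as well, against 0.104% of tested genes by edgeR, and Procr and Esam had an unadjusted p under 0.05 by edgeR. There 4 of the 10 genes had no overlap, against 27% of tested genes.

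Slamf1 was the 1 gene of the 10 whose depleted libraries lay wholly above the controls in CD41- cells and wholly below them in CD41+ cells, a pattern shared by 0.84% of tested genes. The difference of the depletion responses, CD41+ minus CD41-, was -1.13 ± 0.38 for Slamf1 with an adjusted p of 0.606, so a different response of the fractions was not established. For that comparison edgeR called 0 of the 10 genes and 0 of all 13448 (0%). At an unadjusted p under 0.05 it gave 1 of the 10, Slamf1, and 825 of all genes. DESeq2 called 0 of the 10 and 35 genes in all, and limma voom 0 and 0. For Procr the difference was -0.21 ± 0.34 and for Cd34 0.02 ± 0.21, with 95% intervals from -0.93 to 0.52 and from -0.44 to 0.48.

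Levels between genes were compared as CPM per kilobase of exon, with the mean over 11 libraries. Cd9 (165.8) and Ly6a (150.1) were the most abundant, followed by Cd34 (78.9) and Esam (77.0), then Cd48 (36.02) and Procr (28.5), and far below them Robo4 (7.87), Cxcr4 (6.05), Slamf1 (5.51) and Fgd5 (3.32). Procr exceeded Robo4 in 11 of 11 libraries, and Esam exceeded Cd48 in 10 of 11. Ly6a exceeded Cd34 and Slamf1 exceeded Fgd5 in 9 of 11 libraries each, Robo4 exceeded Cxcr4 in 8, and Cd48 exceeded Procr in 7. Cd9 exceeded Ly6a and Cd34 exceeded Esam in 6 of 11 each, and Cxcr4 exceeded Slamf1 in 4 of 11, so these pairs had no steady order. Some steps depended on the length used. With the longest transcript in place of all exons, Cd34 (187.8) exceeded Esam (118.3) in 11 of 11 libraries and stood next to Ly6a (189.4), and Slamf1 (7.67) moved ahead of Cxcr4 (6.06).

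The gate required CD150 and Sca-1 on the surface and excluded CD48. Cd48, the gene of the excluded protein, had a higher level per kilobase than Slamf1, the gene of the required protein, in each library. This order depended on the exon lengths, 1189 bases for Cd48 and 6156 for Slamf1. In CPM, Slamf1 was above Cd48 in control CD41- replicates 1 (25.3 against 23.9) and 3 (16.8 against 12.9). The same held in control CD41+ replicate 1 (56.9 against 25.4) and depleted CD41- replicate 2 (29.5 against 28.7), and Cd48 was above Slamf1 in the remaining libraries. The Slamf1 to Cd48 ratio per kilobase lay between 0.0813 in depleted CD41+ replicate 1 and 0.433 in control CD41+ replicate 1. Ly6a exceeded Cd48 between 1.25-fold and 19.6-fold in 10 libraries, with a ratio of 0.613 in depleted CD41+ replicate 1. In CD41- cells that ratio lay between 9.73 and 19.6 in control and between 2.63 and 6.08 in depleted libraries. In CD41+ cells it was 4.82 and 1.77 in control and 0.613, 1.25 and 2.32 in depleted libraries, which overlapped.

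**Figure D4:**
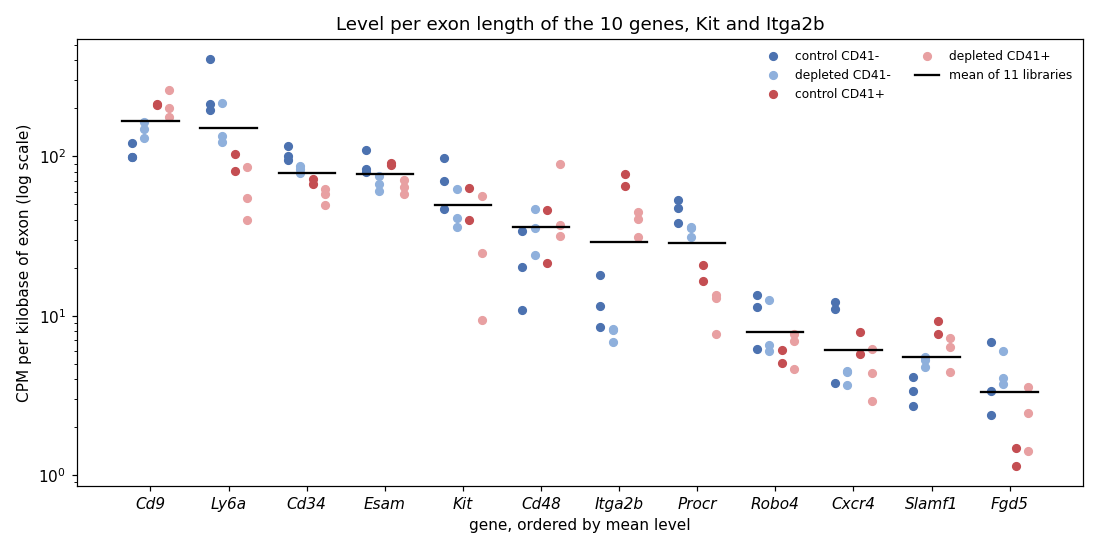
CPM per kilobase of exon (vertical axis, log scale) of the 10 genes, Kit and Itga2b, ordered by mean level (horizontal axis). Points are libraries coloured by group and bars are means over 11 libraries. Cd48, whose protein was excluded by the gate, lies at a mean of 36.02, above Slamf1 at 5.51.

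Lists of related genes place these values in their pathways. Procr acts with thrombomodulin (Thbd), protein S (Pros1), tissue factor pathway inhibitor (Tfpi) and the protease-activated receptors. Of 6 further tested genes of the protein C pathway, 5 were higher in CD41+ cells and 0 lower, with a median of 1.19, whereas Procr itself was lower. Over all tested genes 2.73% were higher. Proc, F2rl1, Nos3, F3 and Serpina5 of the same list did not pass the filter on low counts. The thrombin receptor genes F2rl2 at 2.56 ± 0.40 (adjusted p = 0.00387) and F2r at 0.80 ± 0.14 (adjusted p = 0.00521) had the smallest p. The remaining called genes, named after their values were seen, were Pros1 (1.04), Tfpi (1.33) and Thbd (1.77). All but Thbd passed without each of the 11 libraries, and Thbd missed when control CD41+ replicate 1 or depleted CD41- replicate 1 or 2 was left out, with an adjusted p of up to 0.0933. After depletion 0 of the 6 were called by edgeR, and F2rl2 and F2rl3 had an unadjusted p under 0.05.

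Endothelial and stromal transcripts also moved with the CD41 fractions, and several of the 10 genes are active in endothelium. Of 12 endothelial genes 4 were higher and 1 lower, with Cldn5 at 1.60 (adjusted p = 0.00755), against 5.38% of all tested genes called. Of the 12, 8 had a positive log2 fold change, with a median of 1.55, while their summed level overlapped. It was 432 to 479 CPM in CD41- and 393 to 551 CPM in CD41+ libraries of control mice, and 393 to 547 CPM and 419 to 602 CPM in depleted mice. Vwf, also on the megakaryocyte list, was among the 4. The defining gene Cdh5 had between 0 and 57 counts, with 0 in 1 library. Of 9 tested stromal genes 4 were higher and 0 lower, with Ibsp at an adjusted p of 0.000247. The summed level of 13 stromal genes was 50.6 to 123 CPM in CD41- and 318 to 484 CPM in CD41+ libraries of control mice, and 62.0 to 514 CPM and 482 to 921 CPM in depleted mice. Bglap was at 0 in 9 libraries and Col3a1 in 8. The part of these transcripts in the differences of Procr, Esam, Cd34, Robo4 and the protein C pathway was not tested.

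**Figure D5:**
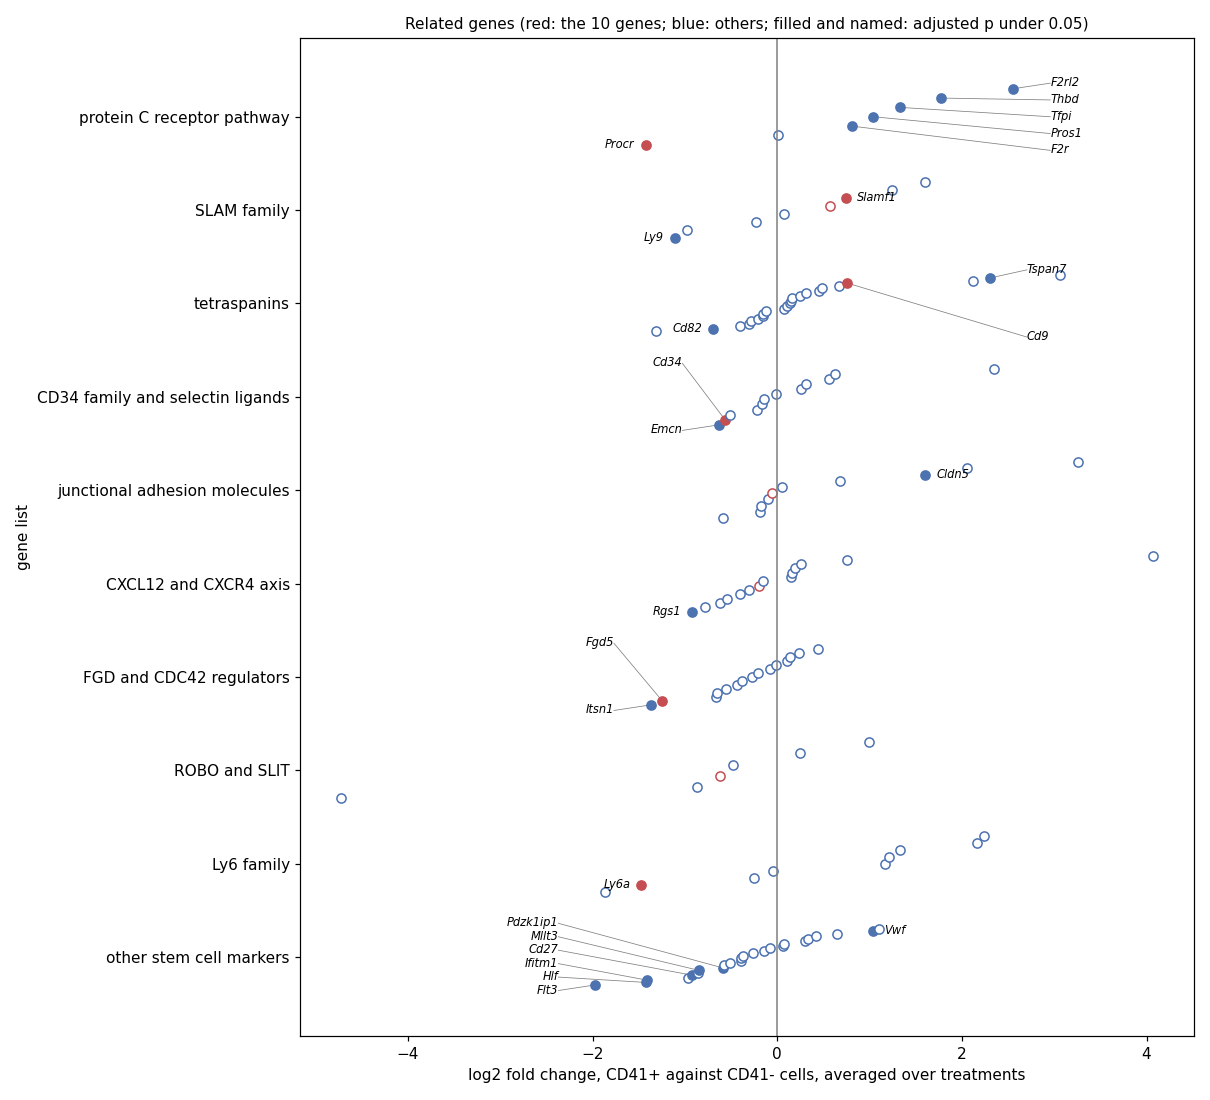
Log2 fold change of CD41+ against CD41- cells averaged over treatments (horizontal axis) for tested genes of 10 lists (rows). Red points are the 10 genes, blue points other genes, and filled, named points have an adjusted p under 0.05. In the protein C pathway Procr lies at -1.42 and the 5 other filled genes between 0.80 and 2.56.

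Among relatives of Slamf1, Cd48, Ly6a and Cd9, the calls stand beside 5.38% of all tested genes in the CD41 average and 6.33% after depletion. Of 6 further SLAM genes 0 were higher and 1 lower, Ly9 at -1.11 ± 0.24 (adjusted p = 0.0190), which missed when either control CD41+ library or depleted CD41- replicate 1 was left out (adjusted p up to 0.0796). After depletion 1 of the 6 was lower, Cd84 at -0.71 (adjusted p = 0.0151), which missed when control CD41+ replicate 1 was left out (0.0972). Of 8 further Ly6 genes 0 were called by edgeR, and 3 had an unadjusted p under 0.05. Of 22 further tetraspanins 1 was higher (Tspan7, 2.30, adjusted p = 0.0289) and 1 lower (Cd82, -0.70, adjusted p = 0.0223). Both missed when either control CD41+ library or depleted CD41- replicate 1 or 2 was left out, and Tspan7 also missed when control CD41- replicate 1 or depleted CD41+ replicate 3 was left out (adjusted p up to 0.104 for Cd82 and 0.101 for Tspan7). After depletion 5 of the 22 tetraspanins were lower and 0 higher, with a median of -0.41. Tspan14 had the smallest p (-0.80 ± 0.12, adjusted p = 0.00184), while Cd9 stood at 0.23. The other 4, named after their values were seen, were Tspan32, Tspan4, Cd37 and Cd63. Tspan14 and Tspan32 passed without each library. Tspan4 missed when control CD41+ replicate 1 or depleted CD41- replicate 1 or 3 was left out (adjusted p up to 0.108). Cd37 passed only when control CD41+ replicate 1 or depleted CD41+ replicate 1 was left out (otherwise up to 0.241), and Cd63 missed when any library was left out (up to 0.148).

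For the niche and adhesion lists, the share of all tested genes called was 5.38% in the CD41 average and 6.33% after depletion. On the CXCL12 and CXCR4 axis 1 of 13 further genes was lower in CD41+ cells: Rgs1, which dampens chemokine receptor signalling, at -0.92 ± 0.20 (adjusted p = 0.0158), which missed when control CD41+ replicate 2 was left out (0.0784). Rgs1 also fell after depletion by 1.37 on the log2 scale (adjusted p = 0.00155), with all depleted libraries below all control libraries, and it passed without each library. Mif on the same axis, named after its value was seen, rose after depletion by 0.54 (adjusted p = 0.0185) and kept its call in 9 of 11 omissions. Of 5 further ROBO and SLIT genes 0 were called by edgeR, and 2 had an unadjusted p under 0.05. Of 14 further CDC42 regulators 1 was lower, the scaffold and exchange factor gene Itsn1 at -1.37 ± 0.29 (adjusted p = 0.0162), which missed when control CD41+ replicate 1 was left out (0.0750). Of 9 further junctional genes 1 was higher, the claudin gene Cldn5. Of 18 integrins and niche ligands 2 were higher, Itgb3, the partner chain of CD41, at 1.32 (adjusted p = 0.0254) and Icam2 at 0.53 (adjusted p = 0.0351). Itgb3 kept its call when control CD41- replicate 2 or 3, depleted CD41- replicate 2 or depleted CD41+ replicate 1 or 3 was left out, and Icam2 when control CD41- replicate 2 or 3 or depleted CD41+ replicate 2 or 3 was left out. Leaving out any other library raised the adjusted p to at most 0.0746 for Itgb3 and 0.0946 for Icam2. After depletion 1 of the 18 was higher, Fn1 at 3.15 (adjusted p = 0.0312), which kept its call in 4 of 11 omissions.

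Among 11 further genes of the CD34 family and selectin ligands, the sialomucin Emcn was lower in CD41+ cells by -0.63 ± 0.16 (adjusted p = 0.0396). It kept a call without depleted CD41+ replicate 2 and missed without each of the other 10 libraries (adjusted p up to 0.135). After depletion Podxl, the podocalyxin gene of the same family, rose by 2.56 ± 0.29 (adjusted p = 0.000606), from a mean of 4.41 CPM over the 5 control libraries to 26.7 CPM over the 6 depleted libraries. Its groups did not overlap and it passed without each library, while Cd34 had -0.31. Fut7 of the same list, named after its value was seen, fell after depletion by 1.02 (adjusted p = 0.0411) and kept its call in 3 of 11 omissions. Of 24 genes on a list labelled other stem cell markers, 6 were lower in CD41+ cells and 1 higher, against 2.65% and 2.73% of all tested genes. The list was not divided by whether a gene marks stem cells or more mature progenitors. The smallest p values belonged to Ifitm1 (-1.41, adjusted p = 0.000277), the stem cell transcription factor gene Hlf (-1.42, adjusted p = 0.000928) and the receptor gene Flt3 (-1.97, adjusted p = 0.00145), all lower. Ifitm1, Hlf and Flt3 passed without each library. Of the other lower genes, named after their values were seen, Mllt3 kept its call in 8 of 11 omissions and Pdzk1ip1 in 1. After depletion 6 of the 24 were lower and 1 higher, against 6.33% of all tested genes called. Pdzk1ip1 stood at -1.18 ± 0.15 (adjusted p = 0.000887) and passed without each library. There Mllt3 kept its call in 8 of 11 omissions, and Hlf and Cd27 in 7 each.

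The genes whose log2 CPM followed each gene most closely over the 11 libraries are a description, since the libraries share their groups and differ in depth. Among 10793 candidates, Procr was followed by Chrnb1 (Pearson r = 0.99) and Cd27 (0.97), Cd34 by Klhdc8b (0.97) and Gpr171 (0.96), and Ly6a by Wee1 and Il18 (0.95 each). Slamf1 was followed by Dpagt1 (0.93) and BC004004 (0.91), Cd9 by Gm26728 and Mpc2 (0.97 each), and Cd48 by Vrk2 and Mrpl3 (0.95 each). The closest to Fgd5 were C2cd3 (0.96) and Rere (0.95), to Esam Rab29 and Cmtm7 (0.94 each), to Cxcr4 Tnfsf14 (0.97) and Fbxl12 (0.91), and to Robo4 Ttc7 and Hectd4 (0.94 each). The 10 genes themselves were left out of the candidates.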

How the data were processed

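Stem cells pooled from 3 mice per library were sorted, and RNA of 1000 cells was reverse transcribed from poly-dT primers with template switching, amplified, tagmented and sequenced, per the labels' protocols. The deposited values were whole-number counts per gene, which the authors made with cutadapt, STAR and HTSeq 0.6.1p1 on GRCm38 (mm10), per the submitters' processing notes. For the strand setting, nothing is given in the sources used here.

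Groups came from the labels. Counts passing filterByExpr (minimum count 10, minimum total 15; 13448 genes, 99.7% of counts) were TMM-normalised and fitted with edgeR 4.0.16 (robust quasi-likelihood, R 4.3.3), 1 coefficient per group over all 11 libraries, with Benjamini-Hochberg adjustment at 0.05. Each SE was taken as the size of the log2 fold change divided by the root of the F statistic. Exon lengths and positions came from GENCODE M21, and figures from matplotlib 3.10.9 in Python 3.11.15.

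The 10 genes and 21 lists were chosen with earlier results of these data known. From each list at most 3 genes with the smallest p in the CD41 average and 1 in the depletion average were named, plus 2 genes per member by correlation (mean of at least 5 CPM). Other settings tried were scaling with RLE factors or by library size alone, no filter, no robust fit, DESeq2 1.42.0, limma 3.58.1 voom, the compared groups only, a block of title numbers and leaving out each library. Their use on list genes, and the megakaryocyte list without Itga2b, were added after seeing the data.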

Additional observations from a re-analysis of the deposited data

Results flagged for a closer look

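Slamf1 stood out because its depletion response took opposite directions in the fractions. Each depleted CD41- library lay above each control CD41- library, and each depleted CD41+ library lay below both control CD41+ libraries. The difference of the responses, CD41+ minus CD41-, was -1.13 on the log2 scale (95% interval -1.95 to -0.31), with an unadjusted p of 0.0103 and an adjusted p of 0.606 by the quasi-likelihood test of edgeR. The same pattern was found for 113 of 13448 genes.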

How the results depend on the processing

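For the 10 genes, Kit and Itga2b, 84 fold changes were recomputed under 11 omissions of a library and up to 8 other settings, which gave 1524 values. Of these, 1450 kept their side of the threshold, 46 no longer passed, 28 newly passed and 0 called values changed sign. Among the 1450 were 61 values that passed in neither fit and changed sign. The number of the 10 genes called in the CD41 average was 3 to 6 when 1 library was left out, lowest without control CD41+ replicate 2. In control mice it was 5 with library size alone, 5 without the filter and 6 with DESeq2, and 0 to 4 when 1 library was left out. In depleted mice it was 2 without the filter, 3 with DESeq2, 2 with limma voom and 0 to 1 when 1 library was left out. After depletion, the averaged count was 0 with library size alone, 0 without robust estimation, 4 with DESeq2 and 0 to 1 when 1 library was left out. Without the filter that count was 1, with Ly6a called and Esam not. In CD41- cells it was 1 without the filter. Consecutive title numbers may pair the fractions, which the labels leave unsaid. With them as a replicate block, 2 genes, Procr and Ly6a, were called in depleted mice. Deviations of such pairs from their group means correlated at 0.0801 and 0.0977 in control mice and at 0.228, 0.343 and 0.207 in depleted mice. In control mice the block left 3 called, with Ly6a passing and Slamf1 not (adjusted p = 0.0522). For depletion it could not be fitted, since each pair lies within 1 treatment. Scaling by library size alone moved the median of all genes in control mice from -0.03 to -0.15 and turned the split of all CD41 calls from 367 higher and 357 lower into 250 higher and 445 lower. The cause of these changes was not tested. Depth limits low genes most, with 1 count worth 1.11 CPM in the shallowest library.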
